A study of Rattus norvegicus with 134 samples.

Results

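miR-221-3p and miR-222 are a pair of related microRNA (miRNA) that were measured in 77 small RNA sequencing libraries from heat-stressed and control rats. They are 2 of the 185 names in the deposited table, where they are listed as rno-miR-221-3p and rno-miR-222. The pair was selected by name, and it was proposed because of its heat-minus-control values in the heart at 48 h. Those heart values at 48 h are therefore given as a description with no test. All other organs and time points were compared by tests.

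Fischer 344 rats of the heat-stress arm stayed in a warm incubator (37.0 °C) up to a core temperature of 41.8 °C, a point called Tc,max. They were euthanized at Tc,max, or moved to ordinary cages and euthanized 24 or 48 h later, and the control rats were euthanized at the matching times. Age, sex and genotype are not given in the sources used here, and no group carried a drug or transgene. The heart was represented by 5 control and 6 heat-stressed libraries at Tc,max, 6 and 6 at 24 h, and 6 and 6 at 48 h. For the kidney there were 5 and 5 at Tc,max, 4 and 6 at 24 h, and 5 and 4 at 48 h, and for the liver 6 and 6 at Tc,max and 1 control at 24 h. Each library came from 1 rat and 1 organ, and rats are named below by their number in the labels. According to the labels, control rats never entered the incubator, whereas the study's methods place them in an incubator at room temperature. The methods also give fewer control animals than the labels, which name 17 control rats for the heart alone. The study describes organ lesions in some of the heat-stressed rats at 48 h. The labels do not say which rats these were, so all heat-stressed rats of 48 h form 1 group.

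miRNA are short RNA that guide silencing proteins to messenger RNA, mainly through the seed, bases 2 to 8 counted from the 5′ end. miR-221 and miR-222 are encoded close together on the X chromosome and are usually made from a common transcript. They are known for repressing the cell cycle inhibitors Cdkn1b (p27) and Cdkn1c (p57) and the receptor Kit, for acting in vascular smooth muscle after injury of rat arteries and in endothelial cells, and, for miR-222, for a part in heart growth shown in mice.

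The mature sequences show why the 2 names are treated as a pair. Both 3p miRNA start with the same 8 bases, and they are the only 2 of 693 rat mature sequences in the RefSeq reference that carry the seed GCUACAU. The seed is in capitals in the lines below, which run 5′ to 3′ with positions on the plus strand of chromosome X in the RefSeq build GRCr8.
rno-miR-221-3p, X:6023246-6023268: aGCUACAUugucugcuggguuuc
rno-miR-222-3p, X:6022682-6022702: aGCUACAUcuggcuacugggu

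Behind the shared start the sequences differ, and the longest stretch that they still share is CUGGGU, 6 bases near the 3′ end. The hairpins from which they are cut lie 458 bases apart, with Mir222 at X:6022621-6022723 and Mir221 at X:6023182-6023290. These hairpins are shown because only one of the deposited names states an arm. In the lines below, capitals mark the 5p arm and then the 3p arm.
Mir222 hairpin: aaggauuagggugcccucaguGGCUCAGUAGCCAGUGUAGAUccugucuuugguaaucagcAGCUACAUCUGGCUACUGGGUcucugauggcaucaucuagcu
Mir221 hairpin: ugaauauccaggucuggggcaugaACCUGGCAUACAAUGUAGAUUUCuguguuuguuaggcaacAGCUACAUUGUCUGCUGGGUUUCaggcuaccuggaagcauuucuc

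The name rno-miR-222 has no arm and matched no RefSeq mature name. Which reads of the Mir222 hairpin it holds is not given in the sources used here, and the values below are called miR-222 without an arm. Of the 80 names without an arm in the table, 41 stand beside an arm name of the same stem, but miR-222 does not, and miR-221-3p is the only name for Mir221.

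Values are log2(CPM + 1), where CPM is the number of reads of a name per 1000000 miRNA reads of the library. A level is thus a share of the miRNA of an organ, and fewer cells of a type cannot be told apart from less RNA per cell. The libraries held 126279 to 879240 reads in the heart, 355221 to 2224069 in the kidney and 126700 to 379443 in the liver, as recovered from the deposited values. No heart or kidney library had fewer than 10 reads of either name. In the liver, miR-221-3p rested on 1 to 9 reads and miR-222 on 7 to 34 reads per library, and 4 of the 13 liver libraries had at most 3 reads of miR-221-3p. Read counts without molecular identifiers are not independent molecules.

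One library went against its label. The library labelled heart of rat 307, heat-stressed at 48 h, held 323 CPM summed over 8 cardiomyocyte names (miR-1, miR-133, miR-208 and miR-499). The same sum was 85370 to 121478 CPM in the 6 control hearts of 48 h and 28323 to 114006 CPM in the other heated hearts. Kidney-epithelium names (miR-192, miR-194, miR-141, miR-429 and the miR-200 family) summed to 9151 CPM in this library and to 435 to 1181 CPM in the other hearts of 48 h. Its cardiomyocyte names ranged from 0 reads of miR-208b and 1 read of miR-1-3p to 44 reads of miR-133a. Its kidney-epithelium names were uneven, with 689 reads of miR-429, 371 of miR-141-3p and 317 of miR-200b-3p. Reads were few for miR-192 (21), miR-194-5p (3) and miR-194-2 (1), while miR-192-5p had 92. The kidney library of the same rat had 2720 reads of miR-192-5p and 23 of miR-141-3p. It also stood apart, with 15601 CPM of the kidney-epithelium names against a kidney median of 82338 CPM. The tissue behind the heart library was not tested. For the comparisons at 48 h, which use these libraries, values without them follow the values with them. Among the other organs, hepatocyte miR-122 summed to 13879 to 21727 CPM in the liver and to at most 291 CPM in the heart and kidney. The kidney-epithelium list was higher in the liver, at 180102 to 207030 CPM, than in the kidney, so that it does not separate these organs.

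In control rats, miR-221-3p was highest in the kidney, lower in the heart and low in the liver, whereas miR-222 had close mean levels in heart and liver. Control kidneys held 8.50 ± 0.17 log2(CPM + 1) of miR-221-3p (SD, n = 14; lowest 8.17, median 8.48, highest 8.85). Control hearts held 7.26 ± 0.29 (SD, n = 17; lowest 6.77, median 7.28, highest 7.90), and control livers 4.15 ± 0.84 (SD, n = 7; lowest 2.53, median 4.47, highest 4.98). No control library of one organ reached the range of another, so the 3 organs did not overlap for miR-221-3p. The share of all names that separate the organs in this way is not given here, so the separation does not set miR-221-3p apart.

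miR-222 was at 7.14 ± 0.29 log2(CPM + 1) in control kidneys (SD, n = 14; lowest 6.74, median 7.10, highest 7.64). It was at 6.16 ± 0.40 in control hearts (SD, n = 17; lowest 5.39, median 6.21, highest 6.64) and at 6.27 ± 0.66 in control livers (SD, n = 7; lowest 5.29, median 6.01, highest 7.08). Every control kidney was above every control heart, and the livers overlapped both organs. For this separation, too, the share of all names is not given.

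**Figure D1:**
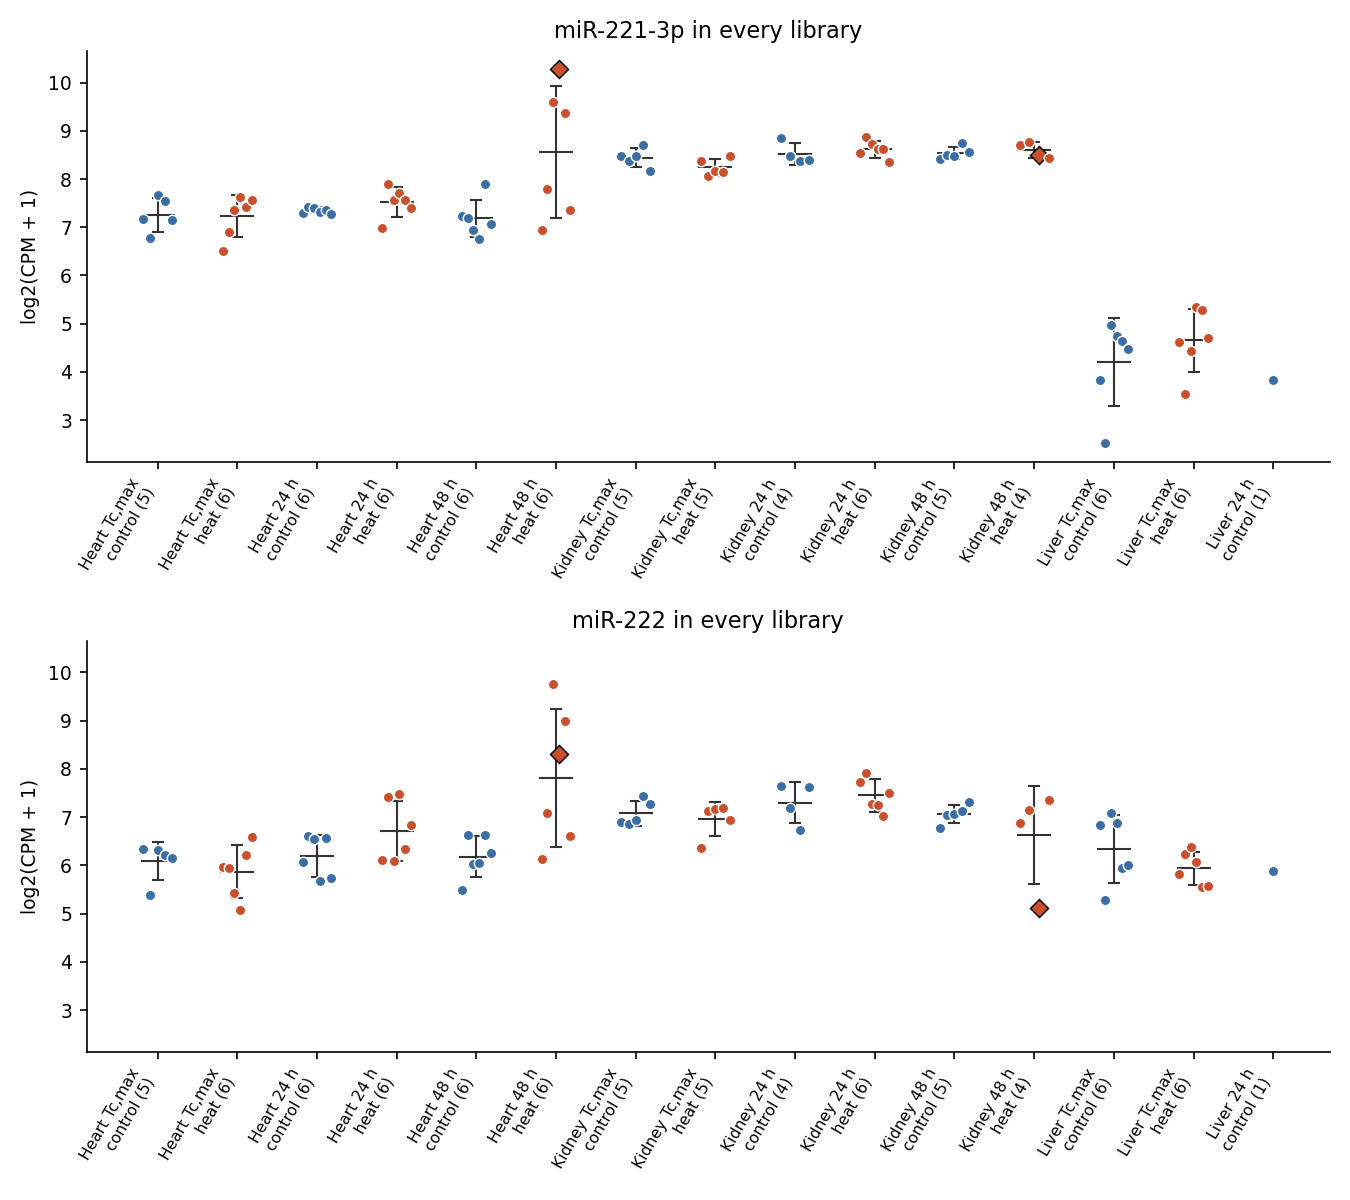
Level of miR-221-3p (upper panel) and miR-222 (lower panel) in every library, as log2(CPM + 1), by organ, time and treatment, with the number of libraries in brackets; bars are the mean ± SD and the diamonds with a black edge are the libraries of rat 307. The liver is the lowest organ for miR-221-3p (2.53 to 5.34) but not for miR-222, and the heated hearts at 48 h spread from 6.94 to 10.27 for miR-221-3p.

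Differences were tested with limma against a minimum log2 difference of 0.32, the cutoff of the study. The test, adjusted by the Benjamini-Hochberg method over all 185 names, called 5 of the 6 differences between control organs for the pair. The heart was lower than the kidney by a log2 difference of -1.23 for miR-221-3p (SE 0.15, adjusted p = 5.70e-07) and of -0.98 for miR-222 (SE 0.16, adjusted p = 0.000176), in a comparison in which 63.8% of all names were called. The heart was higher than the liver by 3.12 for miR-221-3p (SE 0.19, adjusted p = 1.95e-17), with 74.1% of all names called, while for miR-222 the difference was -0.11 (95% interval -0.51 to 0.28, adjusted p = 0.937). The kidney was higher than the liver by 4.35 for miR-221-3p (SE 0.19, adjusted p = 4.35e-22) and by 0.87 for miR-222 (SE 0.20, adjusted p = 0.00799), with 69.2% of all names called. With so many names called, a call alone does not set the pair apart, and the size of the step in miR-221-3p is what these values show. The median difference of all names was -0.29 for heart minus kidney, 0.12 for heart minus liver and 0.18 for kidney minus liver.

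The kidney-to-liver call for miR-222 was lost under median-ratio scaling (0.48, adjusted p = 0.264) and with the Tc,max controls alone (0.75, adjusted p = 0.138). With the Tc,max controls alone, the heart-to-kidney difference of miR-222 was -1.0 (adjusted p = 0.0531). Libraries of 1 organ were pooled, size-selected and sequenced on a lane of their own, and the heart was homogenized by another method than the other organs, so organ, lane and homogenization cannot be told apart.

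Other names of the vasculature and of injury also differed between organs. Of the 8 vascular names (endothelial miR-126 and smooth muscle miR-143 and miR-145), 6 were higher and 0 lower in the control heart than in the kidney, with miR-143 highest by 2.02 (adjusted p = 1.01e-12) while both members were lower there. Of the 8 injury and inflammation names (miR-21, miR-31a, miR-146a and miR-146b), 1 was higher and 5 lower in heart than kidney, and 1 was higher and 7 lower in heart than liver, where miR-21 differed by -4.20 (limma's adjusted p = 2.43e-29). Of the 5 blood cell names (miR-142, miR-150, miR-451), miR-150-5p was higher (1.37, adjusted p = 3.71e-05) and the red cell miRNA miR-451 lower (-1.0, adjusted p = 0.00965) in the heart than in the kidney. The median of the vascular list for heart minus kidney was 1.19, against -0.29 for all names.

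The levels of the pair thus stood in a different ratio in the liver. The difference of miR-221-3p minus miR-222 within a library does not depend on scaling between libraries. It was 1.11 ± 0.36 in control hearts (SD, n = 17), 1.36 ± 0.27 in control kidneys (SD, n = 14) and -2.12 ± 0.61 in control livers (SD, n = 7). In reads, the median ratio of miR-221-3p to miR-222 was 2.0 in control hearts, 2.71 in control kidneys and 0.227 in control livers. All 17 hearts and all 14 kidneys were above every liver.

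Heart and liver differed in this log2 ratio by 3.23 (exact permutation test, two-sided, p = 2.89e-06, the smallest that this design can give; adjusted p = 2.60e-05 over the 9 ratio tests). Kidney and liver differed by 3.49 (exact permutation test, p = 8.60e-06, again the smallest possible; adjusted p = 3.87e-05). The ratio of the heart was lower than that of the kidney by a log2 difference of -0.26 (permutation test with 100000 permutations, p = 0.0356, adjusted p = 0.107), which did not pass. With organs of the same rat paired as a block, the heart-to-liver and kidney-to-liver differences were both 3.31 over 6 rats each (exact sign-flip permutation test, p = 0.0312, the smallest for 6 pairs; adjusted p = 0.107). The precision of the liver ratio is limited by the few miR-221-3p reads given above.

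**Figure D2:**
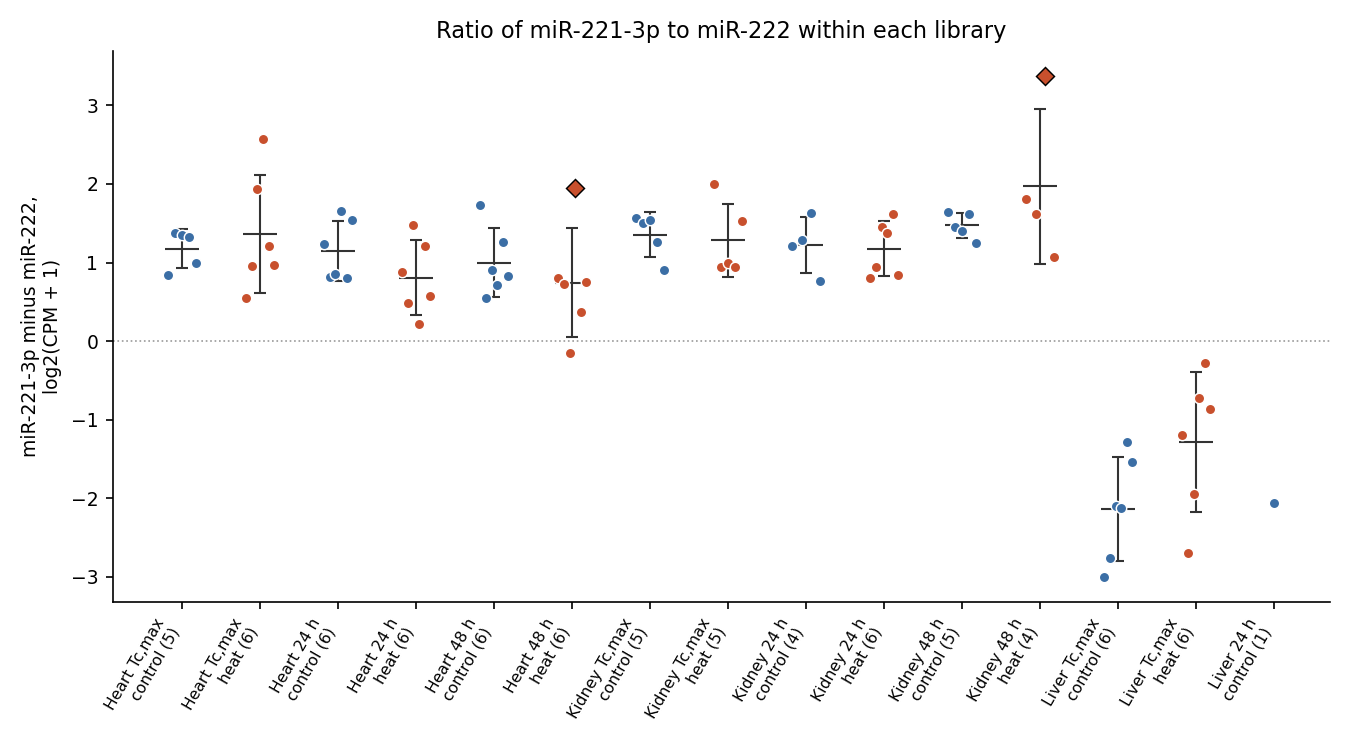
Difference of miR-221-3p minus miR-222 within each library, on the log2(CPM + 1) scale, by organ, time and treatment; the dotted line is equality, bars are the mean ± SD, and diamonds with a black edge are the libraries of rat 307. All 13 livers lie below 0 (-3.00 to -0.28), and the heated heart of rat 306 (-0.16) is the only heart or kidney library below 0.

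In the heart, the pair did not pass the test for heat stress at Tc,max or 24 h. At Tc,max, miR-221-3p was 6.52, 6.91, 7.37, 7.63, 7.42 and 7.57 in the heated rats 280 to 285, and 7.18, 6.77, 7.67, 7.54 and 7.14 in control rats 288, 289, 291, 293 and 294. miR-222 was 5.97, 5.95, 5.43, 5.07, 6.21 and 6.60 in the same heated rats and 6.33, 5.39, 6.33, 6.21 and 6.15 in the same controls. The groups overlapped for both names. The log2 difference of heat minus control was -0.02 for miR-221-3p (95% interval -0.80 to 0.76) and -0.21 for miR-222 (-1.12 to 0.70), with an adjusted p of 0.999 for both from limma. limma called 0 of 163 names in this comparison (0%), and 3 had an unadjusted p under 0.05.

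At 24 h the heated hearts were slightly higher on average and still overlapped the controls. miR-221-3p was 6.99, 7.90, 7.57, 7.70, 7.56 and 7.41 in the heated rats 297 to 302, and its controls were close together at 7.28 to 7.43. 4 of the 6 heated hearts lay above every control and 1 below every control. miR-222 was 6.11, 7.41, 6.09, 7.49, 6.34 and 6.84 in the heated rats and 5.67 to 6.61 in the controls, and 3 of the 6 heated hearts (rats 298, 300 and 302) lay above every control. The log2 differences were 0.17 (95% interval -0.57 to 0.91) for miR-221-3p and 0.51 (-0.36 to 1.38) for miR-222, with limma's adjusted p at 0.999 for both. Again 0 of 163 names were called (0%), and none had an unadjusted p under 0.05.

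At 48 h, where the pair was chosen, the heated hearts fell far apart from each other. miR-221-3p was 6.94, 7.80, 9.61, 10.27, 9.36 and 7.35 in the order of rats 304 to 309. The control hearts held 7.23, 7.18, 6.94, 6.77, 7.90 and 7.08. Rats 306, 307 and 308 were above every control, and the other 3 were within the control range. The heart libraries of rats 308 and 307 were the shallowest of all 35, with 126279 and 194846 reads. The control hearts of 48 h had 408369 to 838657 reads, and rat 306 had 587245. The part of depth in these values was not tested.

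For miR-222 the same hearts, in the same order, held 6.13, 7.08, 9.76, 8.32, 8.99 and 6.60. The controls held 5.49, 6.64, 6.03, 6.05, 6.63 and 6.25, so that rats 305, 306, 307 and 308 were above every control. In the same 3 rats, 306, 307 and 308, both members also exceeded every one of the 29 kidney libraries, whose highest values were 8.86 for miR-221-3p and 7.92 for miR-222. No other heart library did so for either name. The share of all names that exceed the kidneys in this way is not given here, so it does not set the pair apart. The heart library of rat 307 is also the one that went against its label.

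The mean of miR-221-3p was 8.56 ± 1.37 in the heated hearts and 7.18 ± 0.39 in the controls (SD, n = 6 each), a log2 difference of 1.37 (2.59-fold). The mean of miR-222 was 7.81 ± 1.43 against 6.18 ± 0.43, a log2 difference of 1.63 (3.09-fold). Against the control mean, the single hearts ranged from 0.846-fold in rat 304 to 8.52-fold in rat 307 for miR-221-3p, and from 0.965-fold in rat 304 to 11.9-fold in rat 306 for miR-222. The means therefore describe no single rat. For the heart of its injured rats at 48 h, the study names miR-222 as a predicted regulator of Acadm. It describes such regulators there as increased, but that group of rats could not be formed here.

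Without rat 307, whose heart library went against its label, the differences were 1.03 for miR-221-3p and 1.53 for miR-222. Leaving out rat 306 gave the lowest difference for miR-222, 1.24, and leaving out rat 304 gave the highest of both, 1.70 and 1.97. By size of the log2 difference, miR-222 ranked 4 and miR-221-3p ranked 7 of the 163 names, with and without rat 307. The median difference of all names was 0.16. limma called 2 of 163 names at 48 h in the heart (1.23%), and 18 had an unadjusted p under 0.05, or 2 and 11 without rat 307; because the pair was chosen on this contrast, nothing is read from that share.

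**Figure D3:**
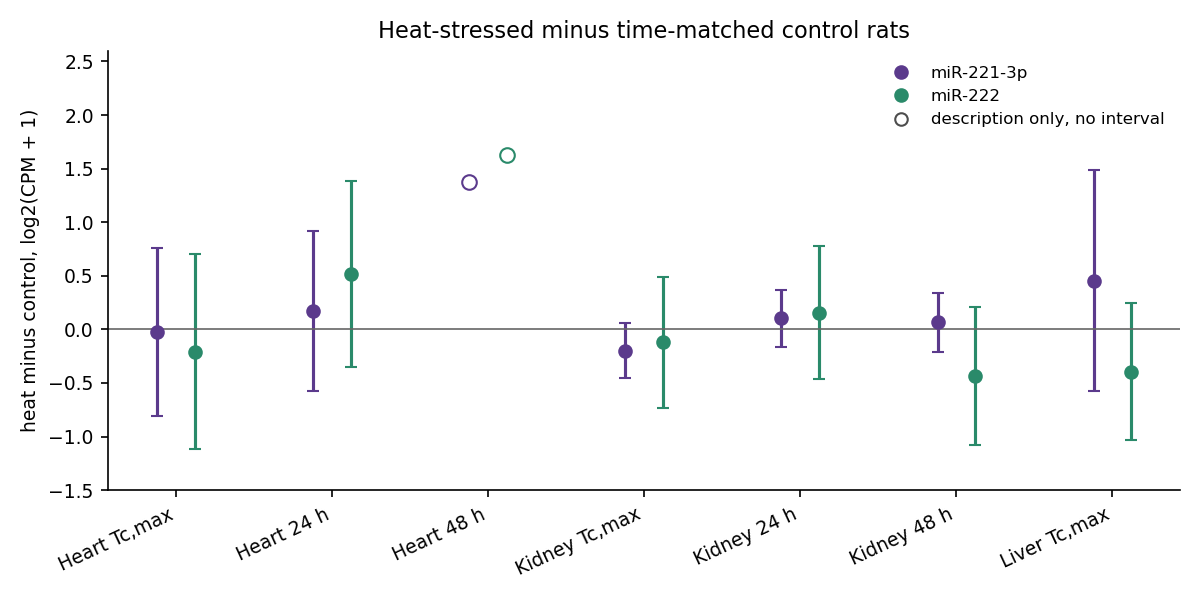
Heat-stressed minus time-matched control difference of miR-221-3p and miR-222 on the log2(CPM + 1) scale for each organ and time, with 95% intervals from limma; the open points of the heart at 48 h have no interval because the pair was chosen there. All intervals drawn include 0, and the open points lie at 1.37 and 1.63.

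Marker sums in the hearts of rats 306, 307 and 308 did not all move with the pair. In rat 306 the smooth muscle names (miR-143 and miR-145) summed to 354419 CPM, above the 84356 to 175704 CPM of the controls, and the cardiomyocyte names to 28323 CPM, below every control. In rat 307 the smooth muscle names were also above every control, at 211006 CPM. The endothelial names (miR-126) summed to 42942 CPM in rat 307, against 9288 to 20187 CPM in the controls. Their sum in rat 306 was 17421 CPM, within the control range. In rat 308 the cardiomyocyte sum was 74098 CPM, below every control, the endothelial sum was 23305 CPM, above every control, and the smooth muscle sum was 94586 CPM, within the control range. The 5 blood cell names summed to 3748 CPM in rat 306 and 3358 CPM in rat 308, above the 669 to 2398 CPM of the controls, and to 1478 CPM in rat 307. The part of these shifts in the values of miR-221-3p and miR-222 was not tested.

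The injury and inflammation names, taken as a sum, were high in the same hearts. Their sum was 57507 CPM for rat 306, 56202 CPM for rat 308 and 22299 CPM for rat 307. It was 12578 CPM for rat 305 and 5366 to 8793 CPM over the control hearts. This list, with 7 names tested, was chosen with earlier results of these data known. Both names called in the heart at 48 h were on it, and nothing is read from that overlap. They were miR-21, which rises in many injured tissues, with a log2 difference of 2.11 (SE 0.44, limma's adjusted p = 0.0184), and miR-146b-5p, a miRNA of innate immune signalling, with 1.92 (SE 0.41, adjusted p = 0.0184). Without rat 307 they were at 2.02 and 1.86 (adjusted p = 0.0442 for both), and no name was called without rat 306 or when the fit held only the heated and control hearts of 48 h. The median of the list was 1.0, against 0.16 for all names, and 0.91 against 0.17 without rat 307. Its names were not alike, with miR-146a at 0.29 and miR-146a-5p at 0.17 over all libraries. None of the 8 vascular and none of the 5 blood cell names were called or had an unadjusted p under 0.05, and the largest differences were 0.55 for miR-143 and 0.40 for miR-126a-3p, and 0.84 for miR-142-3p and 0.52 for miR-451. Without rat 307 these 4 values were 0.44, 0.01, 0.44 and 0.69, again with no name of either list called or at an unadjusted p under 0.05 by limma, and the largest vascular difference was 0.57 for miR-126a-5p.

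**Figure D4:**
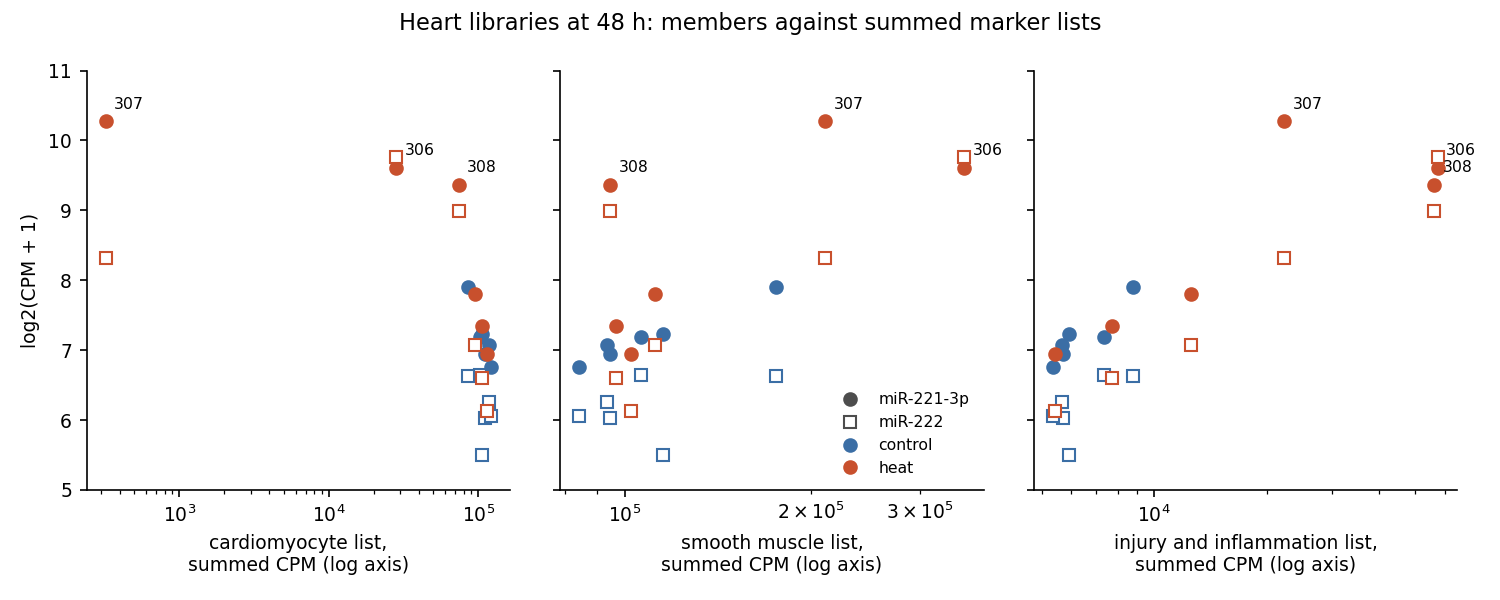
Heart libraries at 48 h, with miR-221-3p (filled circles) and miR-222 (open squares) as log2(CPM + 1) against the summed CPM of the cardiomyocyte, smooth muscle, and injury and inflammation lists on log axes; blue is control and red is heat, and rats 306, 307 and 308 carry their numbers beside miR-221-3p. Rat 307 lies at 323 CPM of cardiomyocyte names, and rats 306 and 308 lie at 57507 and 56202 CPM of injury and inflammation names.

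In the kidney the pair did not pass the test for heat stress at any time. The study, by contrast, names miR-221-3p among the miRNA that differed in the kidney of its injured rats at 48 h. It used a count test and a group of injured rats that could not be formed here. miR-221-3p was 8.37, 8.07, 8.17, 8.14 and 8.47 in heated rats 280, 281, 282, 284 and 285 at Tc,max, against 8.17 to 8.71 in the controls. It was 8.35 to 8.86 at 24 h against 8.37 to 8.85, and at 48 h it was 8.70, 8.77, 8.50 and 8.44 in rats 305, 306, 307 and 309 against 8.42 to 8.74. The groups overlapped at every time. The log2 differences were -0.20 at Tc,max (95% interval -0.45 to 0.06), 0.10 at 24 h (-0.16 to 0.37) and 0.07 at 48 h (-0.21 to 0.34), where the value without rat 307 was 0.10.

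miR-222 in the kidney was 6.37, 7.12, 7.18, 7.20 and 6.95 in the heated rats at Tc,max, against 6.86 to 7.45 in the controls. At 24 h it was 7.02 to 7.92 against 6.74 to 7.64. At 48 h it was 6.89, 7.15, 5.12 and 7.37 in rats 305, 306, 307 and 309, against 6.77 to 7.31, and rat 307 was far below all others with 18 reads. The log2 differences were -0.12 at Tc,max (95% interval -0.73 to 0.49), 0.15 at 24 h (-0.47 to 0.78) and -0.43 at 48 h (-1.08 to 0.21). Without rat 307 the difference at 48 h was 0.07, so its direction rested on that library.

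limma's adjusted p for miR-221-3p and miR-222 in the kidney was 0.615 or higher. It called 0 of 175 names at each of Tc,max, 24 h and 48 h (0%), with 0, 0 and 29 names at an unadjusted p under 0.05. Without rat 307 the count called at 48 h was also 0, and that at an unadjusted p under 0.05 was 6. The heat effect at 48 h minus that at Tc,max was 0.26 for miR-221-3p (95% interval -0.11 to 0.64) and -0.31 for miR-222 (-1.20 to 0.57), with an adjusted p of 0.942 for both. limma called 0 of 175 names in that contrast (0%) and 7 had an unadjusted p under 0.05. Without rat 307, an alternative chosen after seeing the data, these values were 0.30 and 0.19. The kidneys of rats 305, 306, 307 and 309 and their hearts can be set side by side: rat 306 held 8.77 of miR-221-3p in the kidney and 9.61 in the heart, and rat 307 held 8.50 and 10.27. A kidney library of rat 308 was not analysed here.

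With heat, the vascular, injury and blood cell lists gave 0 called names in the kidney, in the liver and in the heart before 48 h, and at Tc,max and 24 h limma gave 0 of their names an unadjusted p under 0.05. At 48 h in the kidney the largest differences were -1.97 for miR-31a-5p, -1.90 for miR-126a-5p and -2.33 for miR-142-5p (limma's adjusted p = 0.244, 0.26 and 0.26), and 2, 1 and 3 names of the injury, vascular and blood cell lists had an unadjusted p under 0.05. Without rat 307 the same 3 differences were -1.25, -0.18 and -0.21 (adjusted p = 1.0 for each), and 3, 0 and 0 names of these lists had an unadjusted p under 0.05. All names had a median difference of -0.43 there, which was also the difference of miR-222, and of -0.01 without rat 307. Relative to the median of -0.43, miR-221-3p was 0.50 higher. As that median moved to -0.01 without rat 307, the 0.50 rested in large part on that library.

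In the liver at Tc,max, the only time with both groups, the members leaned in opposite directions without passing the test. miR-221-3p was 4.63, 3.55, 4.43, 5.34, 5.28 and 4.71 in heated rats 280 to 285 and 3.83, 2.53, 4.98, 4.75, 4.65 and 4.47 in control rats 288, 289 and 291 to 294. miR-222 was 5.81, 6.24, 6.38, 6.06, 5.56 and 5.58 in the heated rats and 6.83, 5.29, 7.08, 6.88, 5.94 and 6.01 in the controls. Groups overlapped for both names. The log2 difference was 0.45 for miR-221-3p (95% interval -0.58 to 1.48) and -0.40 for miR-222 (-1.04 to 0.24), with an adjusted p of 1.0 for both from limma. It called 0 of 176 names (0%), with 2 at an unadjusted p under 0.05. miR-221-3p entered this fit only through the 1 control liver of 24 h, which held 5 reads of it. Neither compared group had 5 reads of it in every library.

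Within the same liver libraries, the log2 ratio of miR-221-3p to miR-222 was -1.28 ± 0.89 with heat and -2.14 ± 0.66 without (SD, n = 6 each). 4 of the 6 heated livers lay above every control liver. The difference of 0.85 did not pass the exact permutation test (two-sided p = 0.0866, adjusted p = 0.195). It rested on 2 to 9 reads of miR-221-3p in each heated and 1 to 5 in each control liver.

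In the heart and kidney no tested difference of the ratio between heated and control rats passed. The log2 difference of the ratio was 0.19 in the heart at Tc,max (exact permutation test, p = 0.632) and -0.34 at 24 h (exact permutation p = 0.21). In the kidney it was -0.08 at Tc,max, -0.05 at 24 h and 0.50 at 48 h (exact permutation p = 0.778, 0.819 and 0.31). The kidney value of 48 h was 0.03 without rat 307, whose own log2 ratio of 3.38 was the highest of all 77 libraries. In the heart at 48 h the difference was -0.26, with ratios of -0.16, 1.96 and 0.37 for rats 306, 307 and 308 against 0.54 to 1.74 in the controls, so that the 3 highest hearts did not share a ratio.

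Across the 12 tested differences of heat minus control, limma called 0 for the pair, and 0 had an unadjusted p under 0.05 (lowest 0.358). limma with voom on the recovered reads also called 0 of them. Control animals of different times were also compared, to show how far the pair moved without heat. In the heart, the control differences from Tc,max were 0.09 at 24 h and -0.08 at 48 h for miR-221-3p, and 0.12 and 0.10 for miR-222. For the kidney they were 0.08 and 0.10 for miR-221-3p, and 0.21 and -0.02 for miR-222. limma called 0 of these 8 differences, and 0 had an unadjusted p under 0.05. In the heart it called 3 of 163 names at 24 h (1.84%) and 2 of 163 at 48 h (1.23%), and in the kidney 0 of 175 names at 24 h (0%) and 48 h (0%).

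Ordered by group means, miR-221-3p ran from 8.62 in heated kidneys at 24 h to 4.20 in control livers at Tc,max. The 6 kidney groups and the heated hearts at 48 h held the first 7 of 14 places, the other 5 heart groups followed, and both liver groups were last. Only 2 of the 13 steps in this order had groups whose ranges did not overlap, the step of 0.72 from heated kidneys to heated hearts and the step of 2.53 from hearts to livers. Without rat 307, the heated hearts at 48 h had a mean of 8.21 and stood between the groups of that first step, overlapping both. miR-222 ran from 7.81 in heated hearts at 48 h to 5.87 in heated hearts at Tc,max, and neighbouring groups overlapped at each of its 13 steps. Heated hearts at 48 h were also the highest group for miR-222 without rat 307, at 7.71. The share of all names with such steps is not given here, so these counts do not set the pair apart.

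The 2 names rose and fell together only loosely between rats of one control group. With the mean of each group removed, Pearson's r was 0.52 over 17 control hearts (permutation p = 0.0321, adjusted p = 0.0642 over 4 tests) and Spearman's rho was 0.56 (permutation p = 0.0214, adjusted p = 0.0642). Leaving out the 2 hearts farthest from the median gave r = 0.28, so in the control hearts alone the size of r depended on them. With heated hearts of Tc,max and 24 h added (n = 29), r was 0.35, and 0.38 without the 2 farthest. In 14 control kidneys r was 0.44 (permutation p = 0.116, adjusted p = 0.146) and rho 0.41 (permutation p = 0.146, adjusted p = 0.146), and r was 0.05 without the 2 farthest kidneys. With heated kidneys of Tc,max and 24 h added (n = 25), r was 0.15, and -0.07 without the 2 farthest.

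**Figure D5:**
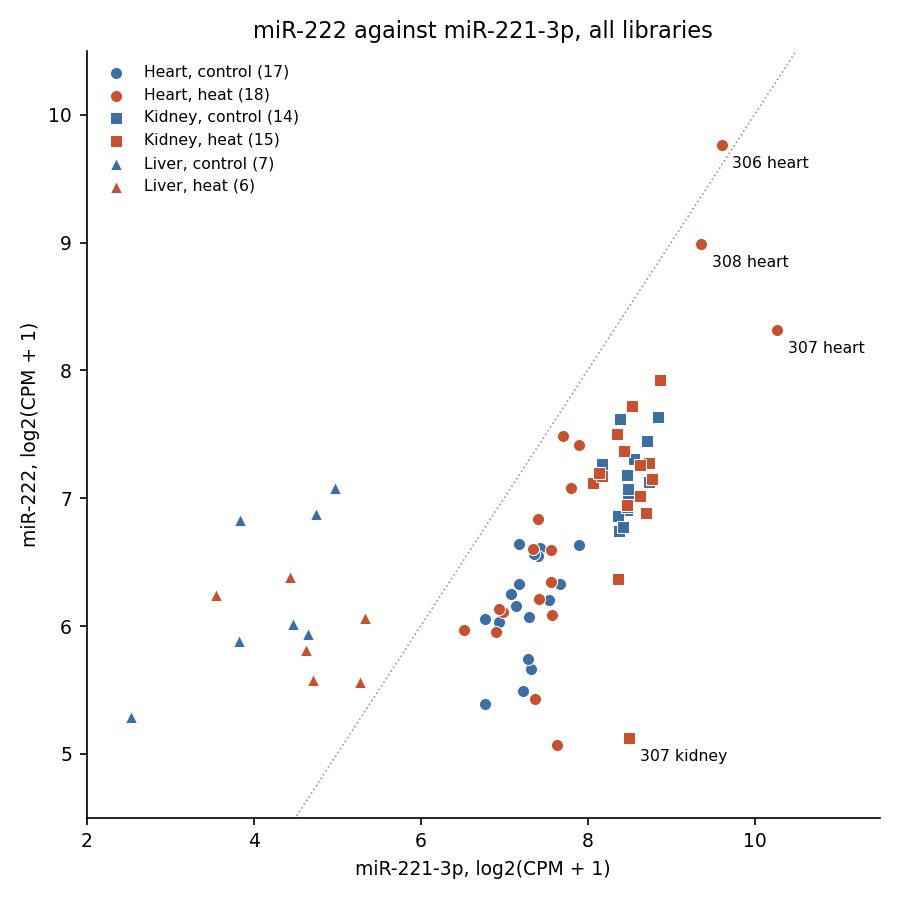
miR-222 against miR-221-3p in all 77 libraries, both as log2(CPM + 1), by organ (circle, square and triangle) and treatment (blue control, red heat); the dotted line is equality. The livers lie above the line and all hearts and kidneys below it except the heart of rat 306, and the hearts of rats 306, 307 and 308 extend beyond the range of the kidneys.

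Names with the most similar pattern were ranked by Pearson's r, as a description only, since the points share organs, lanes and libraries. Over the 14 group means, miR-221-3p was most like miR-320-3p (r = 0.97), miR-30a (0.96), miR-30a-5p (0.96), miR-9a-5p (0.93) and miR-3570 (0.91), and miR-222 ranked 34 of 184 names (r = 0.66). miR-222 was most like let-7c-5p (0.73), let-7b-5p (0.72), miR-451 (0.71), miR-98-5p (0.70) and let-7b (0.69), with miR-221-3p at rank 7. The organ pattern of the pair was thus shared only in part.

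Within the heart the order was different. Over the 35 heart libraries miR-221-3p was most like miR-21-5p (r = 0.87), miR-21 (0.87), miR-222 (0.83), let-7i-5p (0.80) and miR-92a-1 (0.77). miR-222 was most like miR-21-5p (0.93), miR-21 (0.92), miR-21-3p (0.83), miR-221-3p (0.83) and miR-146b-5p (0.82). Without the heart of rat 307, the first 3 names of miR-221-3p were the same, with r = 0.92, 0.90 and 0.84, and the 5 names of miR-222 kept their order, from 0.92 to 0.81. The highest values of both members in the heart belong to heated rats of 48 h, the libraries on which the pair was chosen, and they weigh most in these correlations.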

How the data were processed

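Small RNA libraries of heart, kidney and liver were analysed for 77 of 134 samples; the other 57 (lung and most livers after Tc,max) were not analysed here. Adapters were removed by the authors with cutadapt 2.6, reads were matched perfectly to rat miRNA, and the 185 deposited columns hold log2(CPM + 1). The smallest step between values of a library gave the value of 1 read, and 2189 of 2189 values under 30 reads (100.0%) were whole within 0.05 of a read. Reads served only for depth, the filter and the voom alternative.

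limma 3.58.1 (R 4.3.3) fitted each organ with 1 coefficient per group, tested against a fold change of 1.25 with a trend in the spread and a Benjamini-Hochberg FDR under 0.05. A name entered a fit when every library of some condition had 5 reads of it or more, which left 163 names in heart, 175 in kidney and 176 in liver. The deposited log2 values were tested as they stand, and the study's own count test was not run. Control organs were fitted together over 185 names. Within-library ratios used permutation tests (scipy 1.17.1), with numpy 2.4.6, pandas 2.3.3 and matplotlib 3.10.9 in Python 3.11.15. All tests were two-sided. The limma contrast of heat minus control at Tc,max, the exact permutation test of a difference and the relation test were tried on simulated data. The sign-flip test, the organ contrasts, voom and the fit with the rat as a block were not.

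Groups were taken from the labels. Members, lists and tests were chosen with earlier results of these data known. Named miRNA were the pair, the 5 names most like each over group means and over hearts, and from each list those past the test, or otherwise the 2 with the largest difference, of which the text prints examples. Same-rat numbers pair heart and kidney by animal; deviations of the same rat correlated with a median r of 0.07 over 27 pairs, against -0.04 for other rats. No 2 replicates agreed within sampling noise (172 pairs, lowest chi-square per degree of freedom 3.73). Alternatives were other scaling, no filter, no fold cutoff, log2(CPM + 5), fewer groups, pooled controls, voom, the rat as a block, and leaving out each library. Values of lists, counts and group means without rat 307 were added after seeing the data.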

Additional observations from a re-analysis of the deposited data

Results flagged for a closer look

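Of 42 groups of values tested for a library far from the others, 1 was marked, and chance marks about 1 in 20. It was miR-222 in the control hearts at Tc,max, where rat 289 had the lowest value, 5.391, and the nearest of the other 4 rats had 6.154. The gap was 0.811 of the range of the group, above the critical value of 0.71. This library held 14 reads of miR-222, and without it the heat-minus-control difference of miR-222 in the heart at Tc,max was -0.38 in place of -0.21.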

How the results depend on the processing

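Beside leaving out single libraries, 212 recomputed values of the pair kept their direction and, where tested, their side of the threshold. Another 6 turned direction and 5 lost a call. For the untested heart at 48 h, a value counted as kept when it shifted by less than the spread within groups. No difference that turned had been called. Under median-ratio scaling, the differences became 0.1358 for miR-221-3p with heat in the heart at Tc,max, 0.1072 for miR-221-3p in control hearts of 48 h minus Tc,max and 0.06291 for miR-222 in control kidneys of 48 h minus Tc,max, and the kidney-minus-liver difference of miR-222 was 0.4776 and no longer called. With the controls of Tc,max alone, miR-222 was no longer called for kidney minus liver (0.747) or heart minus kidney (-1.002), with fewer samples. Pairing organs by rat as a replicate block turned miR-221-3p in the kidney at 48 h to -0.003155 and gave 3.311 for both ratios against the liver, whose adjusted p could not pass with 6 pairs; the block changed no other call of the pair. Without rat 307, miR-222 in the kidney was 0.06948 at 48 h, and 0.191 for the change of the heat effect from Tc,max to 48 h, which was chosen after seeing the data. The cause of the changes under scaling was not tested.

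Leaving out 1 library at a time turned the direction in 23 fits, none of them called, and the ranges were as follows. Heat in the heart at Tc,max gave -0.1461 to 0.1198 for miR-221-3p and -0.0543 to 0.35 for the ratio. Control hearts gave -0.03184 to 0.1934 (miR-221-3p) and -0.05421 to 0.2256 (miR-222) for 24 h minus Tc,max, and -0.2207 to 0.02541 and -0.07156 to 0.2391 for 48 h minus Tc,max. Heat in the kidney gave -0.1806 to 0.02683 for miR-222 and -0.2553 to 0.01 for the ratio at Tc,max, -0.02904 to 0.2688 and -0.2045 to 0.0825 at 24 h, and -0.6788 to 0.06948 for miR-222 at 48 h, with -0.5572 to 0.191 for the change from Tc,max. Control kidneys gave -0.02834 to 0.147 for miR-221-3p at 24 h and -0.08068 to 0.07193 for miR-222 at 48 h.

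The 2 names called in the heart at 48 h became 10 without the fold cutoff, 0 when only the groups compared were fitted, 4 with pooled controls, 5 with the replicate block, 2 with voom, and 0 (without rat 306) to 9 (without rat 304) when 1 library was left out. For control hearts the counts went from 3 to 8 (24 h) and from 2 to 13 (48 h) without the fold cutoff, and to 1 to 3 and 2 to 5 without 1 library. The kidney at Tc,max went from 0 to 1 with only the compared groups and the liver from 0 to 1 without the fold cutoff. Depth limits the liver values of miR-221-3p most, since 3 reads there correspond to 3.15 to 4.63 log2(CPM + 1).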
